A study of Mus musculus with 8 samples.

Results

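The paternally methylated imprinting control regions were 3 boxes of the mm9 mouse genome: *H19* at chr7:149764001-149770000, *Meg3* at chr12:110764001-110770000 (the intergenic region between *Dlk1* and *Meg3*) and *Rasgrf1* at chr9:89768001-89776000. The boxes were fixed by position, without use of tag counts, and all 3 are described, beside 505161 windows of 5 kb that held a tag elsewhere in the genome. H3K9me3, trimethylation of lysine 9 of histone H3, was measured by ChIP-seq in feeder-free JM8 ES cells (Agouti C57BL/6N substrain) grown in serum and leukaemia-inhibitory factor. The *T* = 0 cells carried a conditional and a targeted null allele of the H3K9 methyltransferase gene *Setdb1* (*tm1c/tm2* in the study's methods, tm1a/tm2 in the sample labels) and Cre-ERT2 at *Rosa26*. They were treated with 0.8 µM 4′OHT for 48 h, which activates Cre and turns the conditional allele into a null allele (*tm1d/tm2* in the methods, tm1c/tm2 in the labels). *T* = 2d was the end of the treatment, and *T* = 4d and *T* = 6d cells were grown on without 4′OHT. The lines were clonal and the *tm2* allele was present at every time point, *T* = 0 included. Control *tm1c/+* cells were not analysed here. Each time point was compared with *T* = 0, and the loss of Setdb1, the drug and the time in culture cannot be told apart.

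There were 8 libraries. An Upstate-type antibody was used at all 4 time points, and lots 58206 and 638466 of an Abcam antibody at *T* = 0 and 6d, with 1 library for each antibody and time point. The authors had brought the libraries of an antibody to the same number of tags, which was 6887819, 8503927 and 12194174, and a median 5 kb window held 8 or 9, 15 or 16, and 24 or 25 tags. Levels are therefore compared within an antibody, or as times the genome median, the tags per kb of a box over those of the median window of the same library. Intervals are exact 95% intervals and cover counting error only. They are Poisson for counts, binomial for ratios of counts, and conditional odds-ratio intervals where the changes of a pair of boxes or antibodies are compared. A test between a pair of libraries compares those libraries and not the conditions, and the antibodies are no biological replicates. No input library was used, a histone-mark ChIP gives no check of *Setdb1* itself, and with mixed alleles and no DNA methylation data the paternal methylation in the name of these regions could not be checked.

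Imprinting control regions are stretches whose DNA methylation is laid down in only 1 of the parents' germ lines and is kept on that parental chromosome in the embryo, where it sets which allele of the neighbouring genes is expressed. Most carry the methylation on the maternal chromosome, and these regions are among the few that carry it on the paternal chromosome. In ES cells the methylated allele of such regions is known to be bound by the zinc finger protein Zfp57 and its cofactor Trim28 (Kap1), which bring in Setdb1, and to carry H3K9me3. The *H19* region holds sites for the insulator protein CTCF, which binds the unmethylated copy and separates the growth factor gene *Igf2* from its enhancers. The intergenic *Meg3* region governs the Notch ligand-like gene *Dlk1*, the retrotransposon-derived gene *Rtl1* and the non-coding RNA *Meg3*. The *Rasgrf1* region lies upstream of *Rasgrf1*, which codes for an exchange factor for Ras. In the GRCm38.p6 gene table the nearest protein-coding neighbours of the lncRNA gene *H19* are *Mrpl23* and *Igf2*, those of the lncRNA gene *Meg3* are *Dlk1* and *Rtl1*, and those of *Rasgrf1* are *Ankrd34c* and *Ctsh*. The box positions were not checked against an mm9 annotation, and no sequence is shown because no genome of that build was used.

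The *H19* and *Meg3* boxes were rich in H3K9me3 before treatment and fell by *T* = 6d with all 3 antibodies, whereas the *Rasgrf1* box stood at the level of its surroundings and was not called changed in any comparison. At *T* = 0 the *H19* box stood at 4.91, 3.65 and 3.92 times the genome median with the Upstate-type antibody, lot 58206 and lot 638466. The *Meg3* box stood at 6.02, 3.70 and 2.95 times the median. The *Rasgrf1* box stood at 0.972, 1.84 and 1.22 times the median. The order of *H19* and *Meg3* differed between antibodies, and their *T* = 0 intervals overlapped with all 3 (for example 3.23 to 4.72 and 2.36 to 3.65 with lot 638466). The *Rasgrf1* intervals lay below both of the others with all 3 antibodies and included 1 with the Upstate-type antibody (0.532 to 1.63) and lot 638466 (0.899 to 1.63), but not with lot 58206 (1.35 to 2.44).

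**Figure D1:**
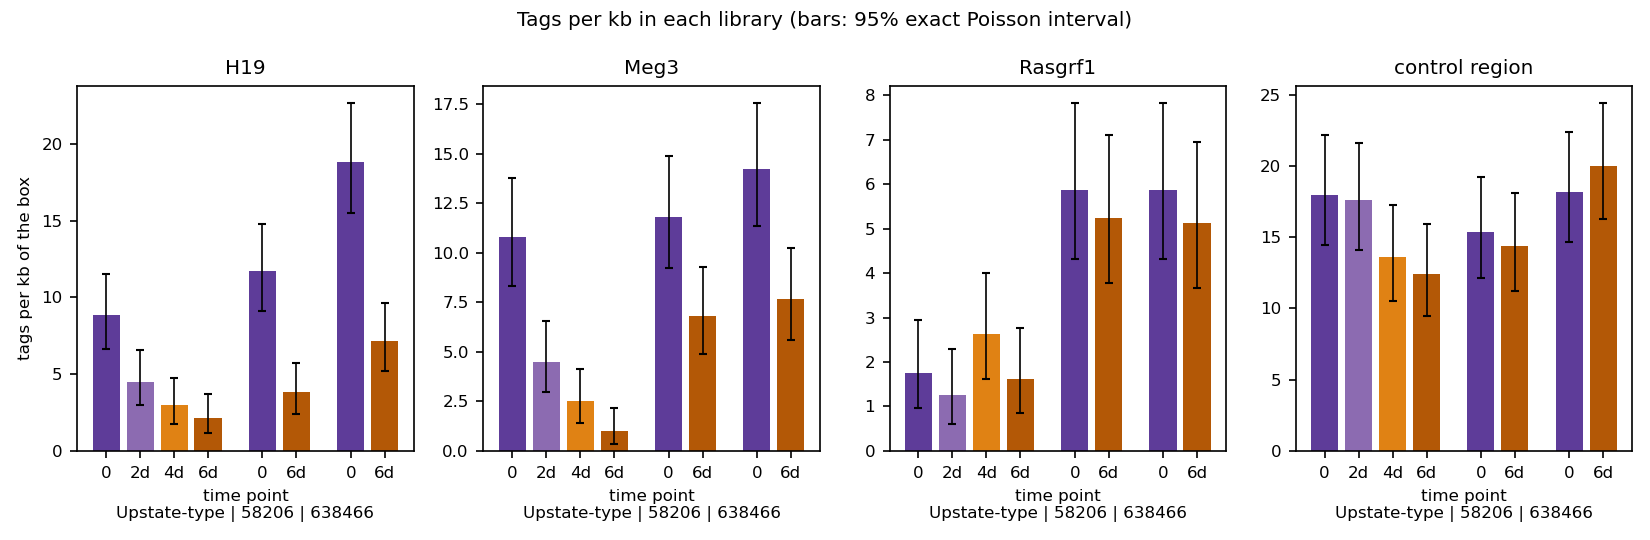
Tags per kb (y axis) in each of the 8 libraries, ordered by antibody and time point (x axis), for the 3 boxes and a control region on chromosome 4. Bars give the tags divided by the length of the box, and error bars the exact 95% Poisson interval. *H19* and *Meg3* drop within each antibody, from 8.83 to 2.17 and from 10.8 to 1.0 tags per kb with the Upstate-type antibody, while *Rasgrf1* stays between 1.25 and 2.62.

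With the Upstate-type antibody the *Meg3* box held 65, 27, 15 and 6 tags at the successive time points. With lot 58206 it held 71 tags at *T* = 0 and 41 at *T* = 6d, and with lot 638466 it held 85 and 46. Every later library was below the *T* = 0 library of its antibody. The *T* = 6d to *T* = 0 ratio was 0.0923 (interval 0.0327 to 0.212, Fisher's exact test *P* = 1.33e-13) with the Upstate-type antibody. It was 0.577 (0.383 to 0.860, Fisher's exact test *P* = 0.00589) with lot 58206 and 0.541 (0.370 to 0.784, Fisher's exact test *P* = 0.000832) with lot 638466. The ratio was lower with the Upstate-type antibody than with either lot (Fisher's exact test, adjusted *P* = 8.57e-05 for each over 9 tests between antibodies), whereas the lots differed from each other by 1.07 times (interval 0.609 to 1.87). No background was taken off these ratios, and the *T* = 0 levels were unlike, at 6.02, 3.70 and 2.95 times the genome median. A lower *T* = 0 level leaves less room to fall, and its part in this difference was not tested.

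The *H19* box fell with each antibody. It held 53, 27, 18 and 13 tags from *T* = 0 to *T* = 6d with the Upstate-type antibody. It held 70 and 23 tags at *T* = 0 and *T* = 6d with lot 58206, and 113 and 43 with lot 638466. The *T* = 6d to *T* = 0 ratios were 0.245 (interval 0.123 to 0.456), 0.329 (0.196 to 0.533) and 0.381 (0.261 to 0.545), with Fisher's exact test *P* = 7.24e-07, 1.10e-06 and 1.93e-08. No pair of antibodies differed past the threshold in this ratio (smallest adjusted *P* = 0.722 by Fisher's exact test), and the interval of the difference between the Upstate-type antibody and lot 638466 ran from 0.293 to 1.35 times.

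The *Rasgrf1* box held 14, 10, 21 and 13 tags over the Upstate-type time course, 47 and 42 with lot 58206, and 47 and 41 with lot 638466. The *T* = 6d libraries were slightly below *T* = 0 with each antibody and *T* = 4d was above it. The *T* = 6d to *T* = 0 ratios were 0.929 (interval 0.402 to 2.13), 0.894 (0.575 to 1.38) and 0.872 (0.560 to 1.36), with Fisher's exact test *P* = 1.0, 0.672 and 0.594. Each interval leaves out the *H19* ratio measured with the same antibody, but that of the Upstate-type antibody, with 10 to 21 tags per library, includes a fall and a rise of 2-fold.

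These counts were read against the genome. A region was called lower where Fisher's exact test gave *P* below 0.01 with a change over 1.5-fold. Of 29468 windows of 5 kb that averaged at least 2 times the genome median, the Upstate-type antibody called 1.79% lower at *T* = 2d, 5.96% at *T* = 4d, then 9.37% at *T* = 6d, and 6.60% and 7.92% at *T* = 6d with lots 58206 and 638466. The shares called higher in the same 5 comparisons were 6.99%, 3.52%, 5.46%, 12.9% and 0.122%, and exceeded the lower share at *T* = 2d and with lot 58206. *H19* and *Meg3* were called lower in all 5 comparisons and *Rasgrf1* in 0. The Upstate-type comparisons share the same *T* = 0 library and are not independent. *H19* and *Meg3* passed the filter on low values (2.48 and 2.55 times the median) and *Rasgrf1* did not (1.21 times). After Benjamini-Hochberg adjustment over the filtered table the *P* values by Fisher's exact test of *H19* and *Meg3* lay between 1.60e-11 and 0.0564, and only *H19* at *T* = 2d was above 0.05. *H19* and *Meg3* passed the filter, which takes the mean of the *T* = 0 and *T* = 6d libraries, through their *T* = 0 levels. Adjusted over all windows that held a tag, with no filter, 4 of these 10 values were above 0.05 by Fisher's exact test: *H19* at *T* = 2d (0.423) and *Meg3* at *T* = 2d (0.0501), with lot 58206 (0.202) and with lot 638466 (0.107). A control region on chromosome 4, taken because the study drew it as a reference, held 62 to 100 tags per library and was called in 0 of the 5 comparisons. The study reports these same libraries, and a region picked as its reference is apt to show little change by that choice. The lack of a call is therefore no independent contrast to *H19* and *Meg3*. With the Upstate-type antibody the control region held 90, 88, 68 and 62 tags over the time course. Its *T* = 6d to *T* = 0 ratio was 0.689, with an interval (0.490 to 0.963) that left out 1.

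**Figure D2:**
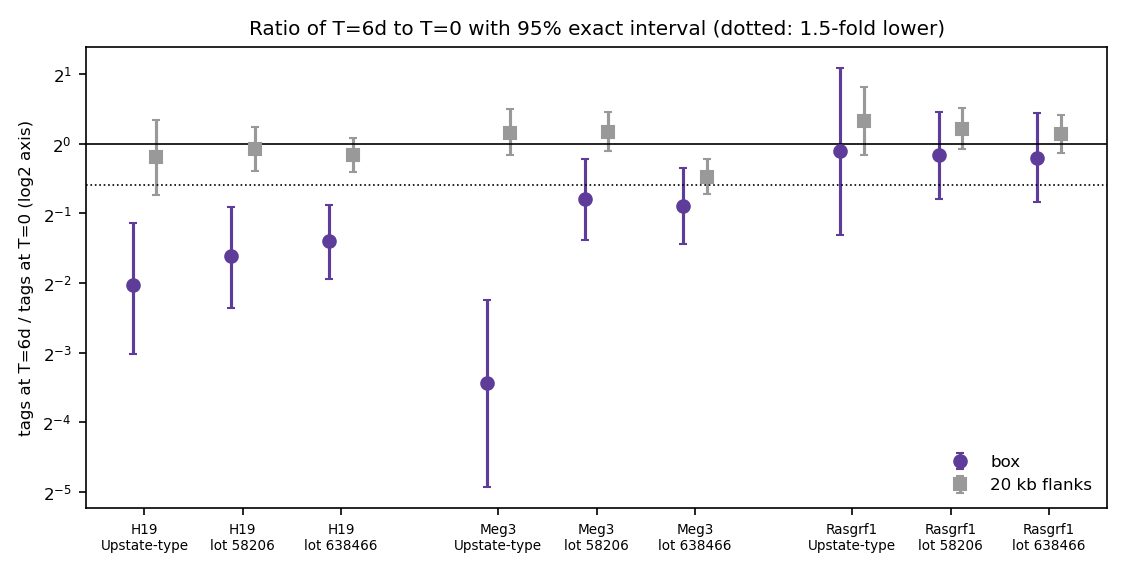
Ratio of the tags at *T* = 6d to those at *T* = 0 (y axis, log2 scale) for each box (circles) and its 20 kb flanks (squares) with each antibody (x axis). Error bars are exact 95% intervals, the solid line marks no change and the dotted line a 1.5-fold lower count. The 6 circles of *H19* and *Meg3* lie at or below 0.577, and those of *Rasgrf1* lie between 0.872 and 0.929.

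The boxes were next compared with each other within an antibody, where the total number of tags cancels. *H19* fell further than *Rasgrf1* with each antibody, the ratio of their changes being 0.264, 0.368 and 0.436 (Fisher's exact test, adjusted *P* = 0.0223, 0.00875 and 0.00973 over 9 tests between boxes). *Rasgrf1* was not enriched over both flanks joined at *T* = 0, though with lot 58206 it was over the right flank alone (1.73 times, interval 1.17 to 2.54). This thus compares an enriched region with one that had little or no enrichment to lose. *Meg3* fell further than *Rasgrf1* with the Upstate-type antibody, with a ratio of 0.0994 (interval 0.0269 to 0.347, adjusted *P* = 0.000327 by Fisher's exact test). With lots 58206 and 638466 this ratio was 0.646 (0.353 to 1.18) and 0.620 (0.345 to 1.12) and did not pass the threshold. *H19* and *Meg3* did not differ past the threshold with any antibody. The ratio of their changes was 2.66 (interval 0.864 to 9.07) with the Upstate-type antibody, 0.569 (0.294 to 1.09) with lot 58206 and 0.703 (0.413 to 1.20) with lot 638466, so that the direction of the difference was opposite between the Upstate-type antibody and the lots.

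By count, most of the tags lost from both enriched boxes in the Upstate-type time course were gone in the library from the end of the 4′OHT treatment. At *T* = 2d the ratio to *T* = 0 was 0.415 (interval 0.255 to 0.660) for *Meg3* and 0.509 (0.308 to 0.825) for *H19*, with Fisher's exact test *P* = 9.26e-05 and 0.00487. After adjustment over the filtered table the *H19* value was above 0.05 (adjusted *P* = 0.0564 by Fisher's exact test). With its wide interval, how much of the *H19* fall came by *T* = 2d is uncertain. The later steps were downward as well, but none passed the threshold alone. From *T* = 2d to *T* = 4d the ratio was 0.556 for *Meg3* (Fisher's exact test *P* = 0.0884) and 0.667 for *H19* (*P* = 0.233). From *T* = 4d to *T* = 6d it was 0.400 for *Meg3* (Fisher's exact test *P* = 0.0784) and 0.722 for *H19* (*P* = 0.473). The neighbouring time points after *T* = 0 are therefore not separated by these counts. *T* = 6d was not tested against *T* = 2d. For *Meg3* the counts of 27 (interval 17.8 to 39.3) at *T* = 2d and 6 (2.2 to 13.1) at *T* = 6d had intervals apart. Those of *H19*, 27 (17.8 to 39.3) and 13 (6.92 to 22.2), overlapped. For *Rasgrf1* the 3 steps had ratios of 0.714, 2.10 and 0.619, and no step passed (Fisher's exact test *P* = 0.541, 0.0708 and 0.229).

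Within the boxes the tags were counted per kb and compared with the 20 kb on each side. At *T* = 0 the *H19* box held 5.44 (interval 3.71 to 7.94), 2.64 (1.97 to 3.50) and 2.47 (1.97 to 3.07) times the tag density of its flanks with the Upstate-type antibody, lot 58206 and lot 638466. At *T* = 6d these values were 1.52, 0.913 and 1.05, with intervals that included 1 for all 3 antibodies. Both flanks joined did not pass the threshold, with ratios of 0.877, 0.949 and 0.895 (Fisher's exact test *P* = 0.526, 0.667 and 0.197). With lot 58206 the sides went opposite ways, neither past the threshold. The right flank went from 102 to 74 tags (ratio 0.725, interval 0.530 to 0.988) and the left from 75 to 94 (1.25, 0.915 to 1.72). The box fell further than its flanks with each antibody (Fisher's exact test *P* = 0.000258, 3.24e-05 and 1.08e-05).

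The tags of the *H19* box were densest in its middle. The kb with the most pooled *T* = 0 tags, chr7:149768001-149769000, held 12, 12, 2 and 4 tags over the Upstate-type time course, 20 and 4 with lot 58206, and 32 and 5 with lot 638466. This kb had not lost tags at *T* = 2d. The next, chr7:149766001-149767000, held 15, 4, 3 and 1 tags, then 16 and 5, then 23 and 7, and was lower in each later library. Both were picked by their *T* = 0 tags, a choice that by itself favours lower counts later. Of the 6 bins of the box, 5 held fewer tags at *T* = 6d than before treatment with the Upstate-type antibody, as did 6 with each lot. In the 40 bins of its flanks 18, 14 and 22 held fewer. The richest flank bins were the kb just right of the box, which held 23 tags pooled over the antibodies at *T* = 0 and 14 at *T* = 6d, and a kb at 13.5 kb left of the box centre, with 23 and 17.

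**Figure D3:**
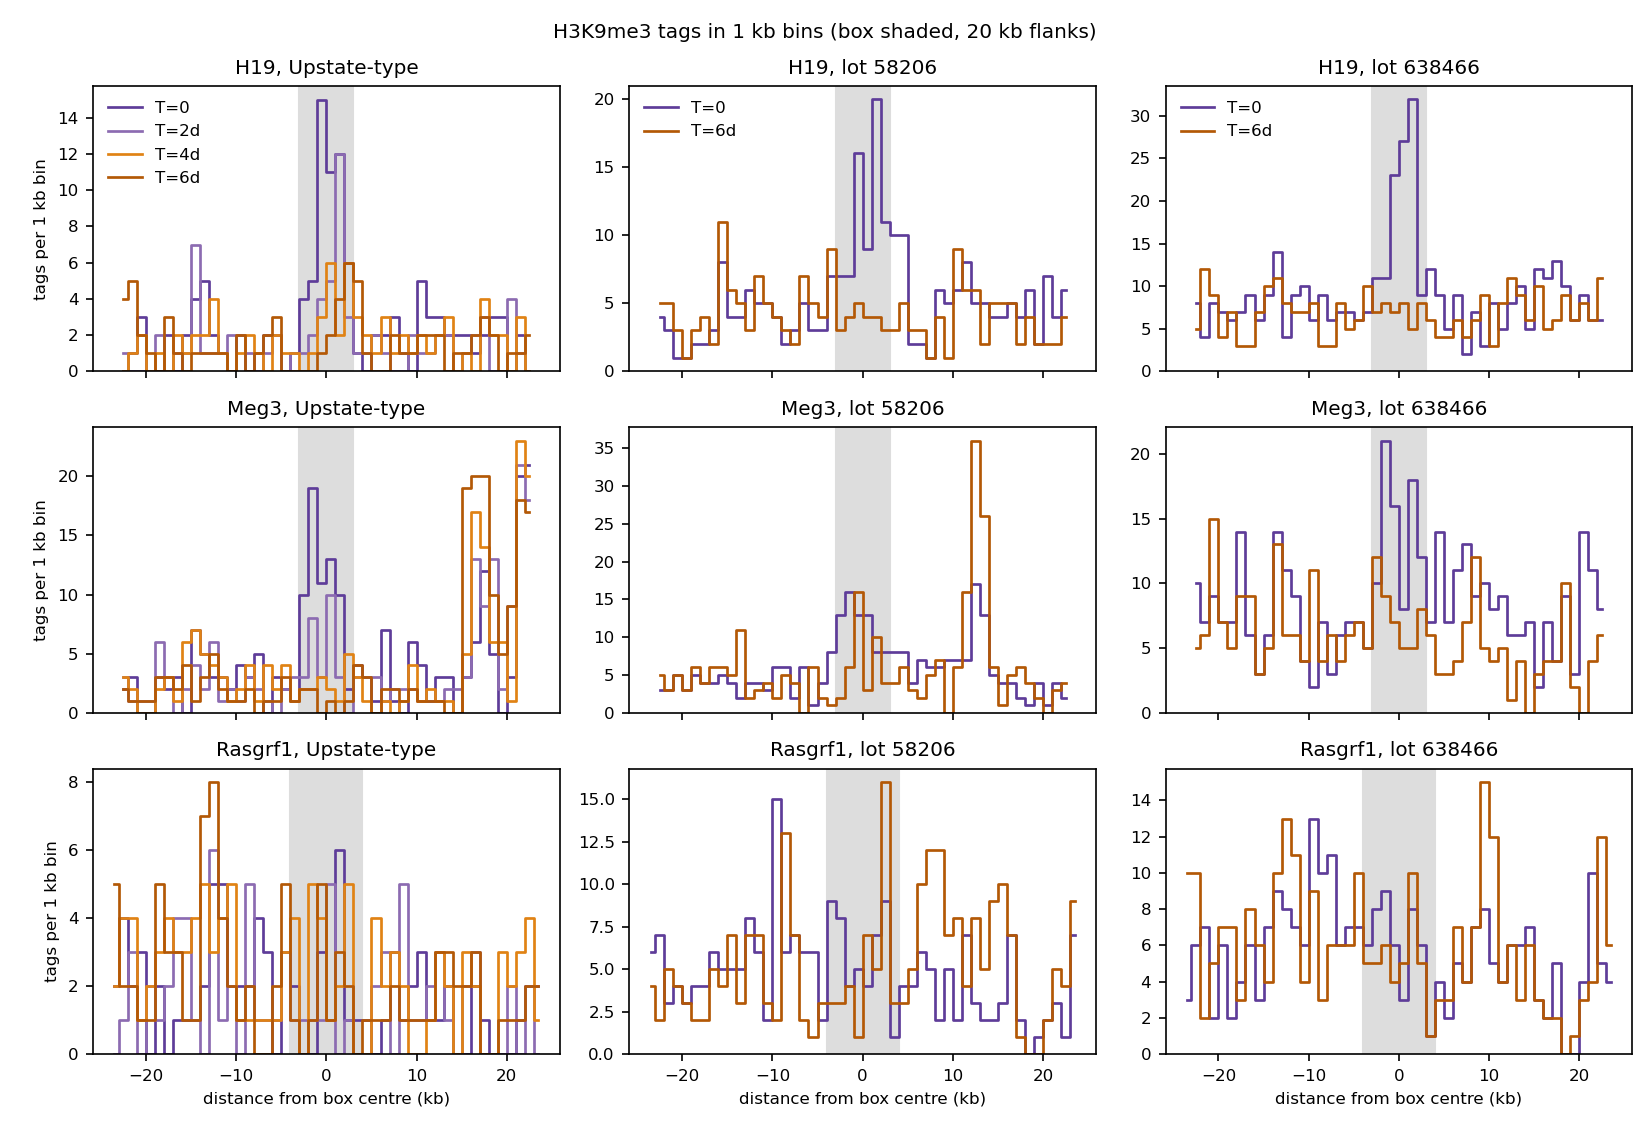
Tags in 1 kb bins (y axis) against the distance from the box centre in kb (x axis), for the 3 boxes (from top to bottom) with the 3 antibodies (from left to right); the box is shaded and each line is 1 library. At *T* = 0 the *H19* and *Meg3* boxes reach 32 and 21 tags per kb with lot 638466, and the *Meg3* flank right of the box holds stretches of its own, with up to 36 tags per kb at *T* = 6d with lot 58206.

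The *Meg3* box differed from *H19* in its surroundings. At *T* = 0 it held 2.81 (interval 2.07 to 3.78), 2.38 (1.79 to 3.13) and 1.83 (1.43 to 2.34) times the density of its flanks. At *T* = 6d it was below both flanks joined with the Upstate-type antibody, at 0.231 times (0.0837 to 0.514). It was near them with lots 58206 and 638466, at 1.21 (0.849 to 1.70) and 1.38 (0.979 to 1.90) times. Over the left flank it then held 0.526 (0.182 to 1.25), 1.65 (1.10 to 2.42) and 1.13 (0.789 to 1.59) times. Over the right flank it held 0.148 (0.0534 to 0.331), 0.962 (0.663 to 1.37) and 1.76 (1.21 to 2.55) times. Against the genome median it stood at 0.556 (0.204 to 1.21), 2.28 (1.63 to 3.09) and 1.53 (1.12 to 2.05) times. The box thus remained above the median with both lots. This was not particular to *Meg3*. *H19* was above it at *T* = 6d with lot 638466, at 1.43 times (1.04 to 1.93). *Rasgrf1* was above it with lot 58206, at 1.75 times (1.26 to 2.37). With the other antibodies the intervals of *H19* and *Rasgrf1* included 1. The *Meg3* box fell further than its flanks with the Upstate-type antibody and lot 58206 (Fisher's exact test *P* = 3.61e-13 and 0.00206). With lot 638466 the difference did not pass (0.750 times, Fisher's exact test *P* = 0.165), and there the right flank also fell, from 165 to 87 tags (ratio 0.527, Fisher's exact test *P* = 1.02e-06). Against the left flank alone, chosen after these values were seen, the box changed by 0.124, 0.571 and 0.573 times (Fisher's exact test *P* = 8.64e-07, 0.0271 and 0.0108).

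The kb of the *Meg3* box with the most pooled *T* = 0 tags, chr12:110765001-110766000, held 19, 8, 2 and 2 tags over the Upstate-type time course, 16 and 6 with lot 58206, and 21 and 9 with lot 638466. It was lower in each later library, but it was picked by its *T* = 0 tags, a choice that by itself favours lower counts later. The next, chr12:110766001-110767000, held 11, 3, 3 and 0 tags with the Upstate-type antibody and 16 and 7 with lot 638466, but 13 and 16 with lot 58206. All 6 bins held fewer tags at *T* = 6d with the Upstate-type antibody, 4 did with lot 58206 and 5 with lot 638466. In the 40 bins of its flanks 18, 18 and 27 held fewer, so that with lot 638466 most flank bins were lower too.

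The right flank of *Meg3* held the richest flank bins, and the antibodies differed there. Of its stretches, chosen after their values were seen and given without a test, chr12:110782001-110790000 held 70, 88, 92 and 118 tags over the Upstate-type time course, or 4.86 to 8.19 times the genome median. The same stretch held 22 and 25 tags with lot 58206 and 58 and 33 with lot 638466. Nearer to the box, chr12:110778001-110781000 held 37 and 78 tags with lot 58206, or 3.85 and 8.67 times the median, but 2 to 7 tags with the Upstate-type antibody and 21 and 10 with lot 638466. By *T* = 6d the first stretch thus had a higher count than before treatment with the Upstate-type antibody and a lower one with lot 638466, and the second a higher one with lot 58206 and a lower one with the others.

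The *Rasgrf1* box was close to its flanks in tag density. Its density was 0.769 to 1.32 times that of both flanks joined, and each interval included 1 in the 8 libraries. Against the right flank alone it was 1.73 times as dense (interval 1.17 to 2.54) with lot 58206 at *T* = 0, and there it fell relative to that flank by *T* = 6d (0.502 times, Fisher's exact test *P* = 0.00913). At *T* = 0 the values were 1.04 (interval 0.542 to 1.88), 1.32 (0.936 to 1.83) and 1.06 (0.759 to 1.46) with the Upstate-type antibody, lot 58206 and lot 638466. The richest kb, chr9:89773001-89774000, held 6, 0, 2 and 3 tags over the Upstate-type time course, 7 and 5 with lot 58206, and 8 and 10 with lot 638466. The next, chr9:89768001-89769000, held 2, 1, 4 and 1 tags, then 9 and 3, then 6 and 5. The last kb of the box held 0 to 3 tags in each library, and 1 kb of its right flank held 0 tags in all 8. No bin of a box was empty in all 8 libraries, and the part of each bin to which tags could be mapped was not measured.

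Around *Rasgrf1* the flanks held more tags than the box in places. A kb at 9.5 kb left of the box centre held 15 and 2 tags with lot 58206 and 13 and 9 with lot 638466, but 2 and 1 with the Upstate-type antibody at *T* = 0 and *T* = 6d. The right flank was higher at *T* = 6d with lot 58206, from 68 to 121 tags (1.78-fold, Fisher's exact test *P* = 0.000142), but held 23 and 29 tags with the Upstate-type antibody and 91 and 103 with lot 638466. With that lot more of the filtered windows were called higher (12.9%) than lower.

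The boxes were also set beside stretches of their own length over 200 kb on each side. Among 66 stretches of 6 kb around *H19*, 1, 0 and 0 held at least as many tags as the box at *T* = 0 with the Upstate-type antibody, lot 58206 and lot 638466, and 16, 40 and 12 did at *T* = 6d. Around *Meg3* 17, 0 and 0 of 66 stretches did at *T* = 0, and 57, 1 and 13 at *T* = 6d. Around *Rasgrf1* 24, 5 and 27 of 50 stretches of 8 kb held at least as many tags as the box already at *T* = 0. At *T* = 0 the *Meg3* box was thus the richest stretch of these surroundings with both lots, but not with the Upstate-type antibody, where a stretch nearby reached 101 tags.

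The change across the 3 antibodies was tested with limma on log2(tags per 1000000 tags per 5 kb + 0.5), with the antibody as a term, so that a fold change understates that of low counts. *H19* changed by -1.47 (SE 0.27, *n* = 3 antibodies, limma adjusted *P* = 0.000992) and *Meg3* by -1.43 (SE 0.33, limma adjusted *P* = 0.00970) on the log2 scale from *T* = 0 to *T* = 6d. Both were called lower, at an adjusted *P* below 0.05 with a change over 1.5-fold, as were 3.54% of the windows tested. The median change of the windows that passed the filter was -0.13, and 1.71% and 1.86% of them lay below *H19* and *Meg3*. Both boxes had passed this filter through their *T* = 0 levels. Without it the median was 0.02 and the shares were 0.335% and 0.383%. *Rasgrf1*, which entered only the table without the filter, changed by -0.13 (SE 0.23, limma adjusted *P* = 0.857). The control region, whose choice as a reference favours little change, changed by -0.16 (SE 0.28, limma adjusted *P* = 0.956). Without the Upstate-type antibody neither box was called, with *H19* at -1.34 (limma adjusted *P* = 0.316) and *Meg3* at -0.76 (limma adjusted *P* = 0.786), while 1.89% of the windows were. Both calls were lost without the antibody term (limma adjusted *P* = 1.0 for both), and that of *Meg3* was lost without the filter (limma adjusted *P* = 0.0910).

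**Figure D4:**
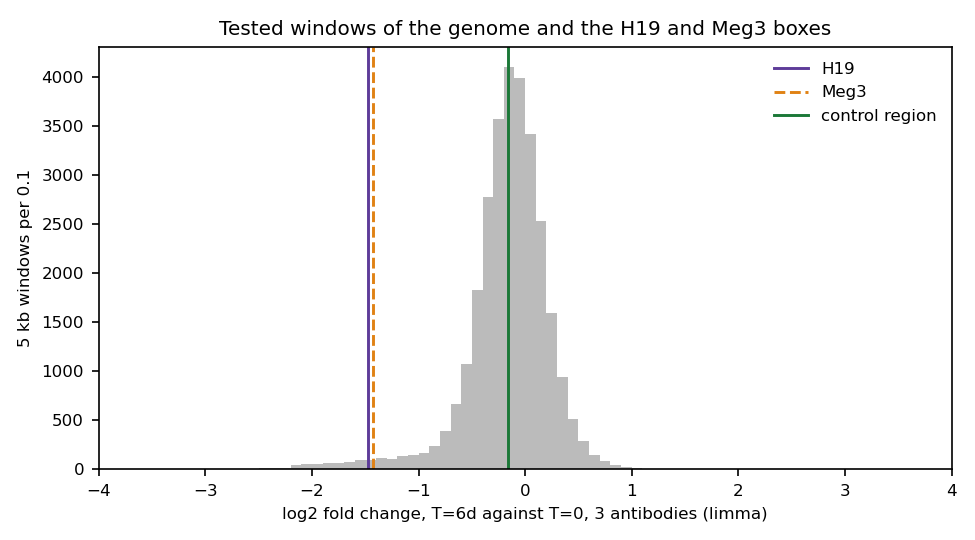
Number of tested 5 kb windows (y axis, per 0.1) by their log2 fold change from *T* = 0 to *T* = 6d across the 3 antibodies (x axis, limma). Vertical lines mark *H19* at -1.47 and *Meg3* (dashed) at -1.43, in the lower tail of the windows, and the control region at -0.16, near their median. The control region was taken because the study drew it as a reference, a choice that favours little change.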

How the data were processed

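Tags of 8 H3K9me3 ChIP-seq libraries were counted in 3 boxes of the genome. The members and the lists were chosen with earlier results of these data known. Groups follow the labelled time point, and antibodies the labelled preparation or lot.

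The authors mapped tags uniquely with at most 1 mismatch, equalised the tag totals of libraries made with 1 antibody (how tags were picked is not given in the sources used here, nor is the aligner) and extended them to 300 bp. The deposited intervals are mm9 positions without strand or score, and no library repeats a start. Since totals were equalised, a change in the total amount of H3K9me3 cannot be seen, and ratios are relative to the rest of the genome. The number of per-sample columns left unused was 0.

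Tags were placed by their midpoint (Python 3.11.15, numpy 2.4.6, pandas 2.3.3, scipy 1.17.1, matplotlib 3.10.9) in boxes, 1 kb bins, 20 kb flanks and 5 kb windows of chromosomes 1 to 19 and X. Libraries were compared by two-sided Fisher's exact tests on tags inside and outside a region, or in a pair of regions. *T* = 6d and *T* = 0 were also compared with limma 3.58.1 in R 4.3.3 (lmFit, eBayes with trend). Its model had the antibody as a block, as libraries were scaled within an antibody. Libraries of an antibody deviated together from the time point means (*r* = 0.907, 0.894 and 0.424 across windows for the Upstate-type antibody, lot 58206 and lot 638466). *P* values were adjusted by Benjamini-Hochberg over the boxes and the windows that passed the filter (an average of at least 2 times the median), and also over all windows. The bins named are the 2 richest of each box and of its flanks in pooled *T* = 0 tags, so that their later counts are apt to be lower by the choice alone. Alternatives were the scaling, box limits, tag placement, pseudocount, filter, window size, flank length, antibody block and leaving out each antibody.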

Additional observations from a re-analysis of the deposited data

Results flagged for a closer look

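The change of the *Meg3* box from *T* = 0 to *T* = 6d differed between antibodies. The ratio with the Upstate-type antibody was 0.16 times that with lot 58206 (interval 0.0525 to 0.416) and 0.171 times that with lot 638466 (interval 0.0565 to 0.437), each with an adjusted *P* of 8.57e-05 by Fisher's exact test. The part of the antibodies, of their unlike *T* = 0 levels and of the separate libraries they were used in, in this difference was not tested.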

How the results depend on the processing

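Of 168 values recomputed under alternatives, 141 kept their direction and their side of the threshold or, for a share of windows, stayed within 1.5-fold. Values that were uncalled and stayed so count among them. For *H19* at *T* = 2d the call was lost with scaling to background windows (ratio 0.568), a box narrowed by 1 kb at each end (0.535) and counting by overlap (0.547). For *Meg3* at *T* = 6d with lot 58206 it was lost with background scaling (0.603) and the narrowed box (0.700), and against the flanks with 10 kb flanks (0.613), the narrowed box (0.619) and the left flank alone (0.571). With the narrowed box, *Meg3* against *Rasgrf1* with lot 638466 passed (0.472, adjusted *P* = 0.0432 by Fisher's exact test). The *Rasgrf1* ratio with the Upstate-type antibody turned to 1.09 and 1.06 with the narrowed and widened box, and with lot 58206 that against its flanks to 1.14 with the left flank alone; all were uncalled. In limma, without the replicate block by antibody, *H19* (-1.47) and *Meg3* (-1.43) were not called and the share of windows lower was 0.00679%. Without the filter *Meg3* (-1.43) was not called and the shares were 0.792%, 2.08%, 3.08%, 1.98% and 1.93% by Fisher's exact test, in the order of the report, and 0.604% by limma. Background scaling also lost the *Meg3* call (-1.42, limma adjusted *P* = 0.0542). Leaving out 1 antibody gave -1.58 to -1.34 for *H19*, -1.78 to -0.76 for *Meg3* and 1.82% to 2.92% of windows. A filter at 3 times the median left neither box in the table. The cause of these changes was not tested. With 6 to 113 tags in the *H19* and *Meg3* boxes and 10 to 47 in *Rasgrf1*, counting error limits each ratio.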
